A study of Mus musculus with 20 samples.

Results

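Aminoacyl-tRNA synthetase genes were followed in mouse embryonic stem cells (ESCs) that lost Cnot3, a subunit of the CCR4-NOT complex, which shortens the poly(A) tails of mRNAs. The Ensembl gene IDs of the count tables were given GENCODE M21 symbols, and 36 synthetase genes were taken by symbol from 37991 IDs. Of these, 20 encode enzymes of the cytosol and 16, whose symbols end in 2, encode enzymes of mitochondria. All 36 passed the filter on low counts in every comparison. RNA sequencing covered 20 libraries in 10 groups of 2 biological replicates. The design gives a conditional Cnot3 allele in cells that received 0.1 µM 4-hydroxytamoxifen to delete it (KO) or DMSO (WT). On day 3 after the start of treatment, whole-cell RNA and RNA bound to polysomes, the mRNAs that carry several ribosomes, were sequenced from KO and WT cells. On day 2, KO and WT cells were given actinomycin D, which blocks transcription, at 10 µg/ml, and whole-cell RNA was taken after 0, 4 and 8 h. The strain label of every group is C57BL/6. The 4 WT libraries of day 3 carry the source label E14Tg2a, whereas the KO libraries and all libraries of the actinomycin D series carry that of the conditional line. A difference between lines and the effect of the deletion therefore cannot be told apart on day 3. The labels do not say what drives the recombinase or how many clones were used.

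Each synthetase joins its amino acid to the matching tRNA with energy from ATP, and the charged tRNAs supply the ribosome. Cytosolic and mitochondrial translation use separate tRNAs, so most amino acids have a pair of nuclear synthetase genes. Gars and Kars each serve both compartments, and Eprs charges glutamate and proline tRNAs with a single fused protein. Several cytosolic enzymes sit in a multisynthetase complex held together by the scaffold proteins Aimp1, Aimp2 and Eef1e1. In mammalian cells, many cytosolic synthetase genes are known targets of ATF4, the transcription factor of the amino acid and integrated stress response, which binds composite C/EBP-ATF sites. CCR4-NOT acts on mRNAs after transcription, and loss of Cnot3 is studied in ESCs because the complex helps them keep their pluripotent state.

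Promoters of the cytosolic members that hold the core of a C/EBP-ATF site are shown because ATF4 is known to bind such sites. RefSeq promoters (GRCm38.p6, 250 bases before to 50 after the start site) matched 12 cytosolic and 14 mitochondrial members by symbol. Cars, Hars, Hars2, Lars, Mars, Nars, Pars2, Rars, Vars and Wars had no entry in that table. The core TGATGNAA of the C/EBP-ATF site was searched on both strands. It was found in promoters of 5 of 12 cytosolic genes (41.7%) and of 0 of 14 mitochondrial ones. Of the 27025 genes in the table, 4.51% held it, and of its 32851 promoters 3.97%. These 5 promoters follow, 5′ to 3′ on the strand of the gene, with the core in capitals, where a core on the opposite strand reads as its reverse complement.
Aars (chr8:111033592-111033891, plus strand): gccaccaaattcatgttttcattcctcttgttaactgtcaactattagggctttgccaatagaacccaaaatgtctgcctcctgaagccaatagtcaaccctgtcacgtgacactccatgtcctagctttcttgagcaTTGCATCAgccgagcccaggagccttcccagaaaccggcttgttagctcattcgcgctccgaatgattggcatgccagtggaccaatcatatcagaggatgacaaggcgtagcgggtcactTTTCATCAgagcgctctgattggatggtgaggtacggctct
Gars (chr6:55037751-55038050, plus strand): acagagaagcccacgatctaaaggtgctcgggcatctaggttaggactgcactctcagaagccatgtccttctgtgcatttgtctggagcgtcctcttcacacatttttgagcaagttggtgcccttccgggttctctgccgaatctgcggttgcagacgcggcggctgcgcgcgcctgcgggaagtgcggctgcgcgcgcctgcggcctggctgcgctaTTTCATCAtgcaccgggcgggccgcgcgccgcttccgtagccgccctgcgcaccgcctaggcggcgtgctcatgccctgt
Iars (chr13:49681880-49682179, plus strand): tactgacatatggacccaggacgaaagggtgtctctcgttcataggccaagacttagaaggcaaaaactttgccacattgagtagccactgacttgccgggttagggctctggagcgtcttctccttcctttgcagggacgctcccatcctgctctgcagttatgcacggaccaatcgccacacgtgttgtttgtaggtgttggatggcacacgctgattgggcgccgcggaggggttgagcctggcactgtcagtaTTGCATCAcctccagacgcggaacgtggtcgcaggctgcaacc
Tars (chr15:11399609-11399908, minus strand): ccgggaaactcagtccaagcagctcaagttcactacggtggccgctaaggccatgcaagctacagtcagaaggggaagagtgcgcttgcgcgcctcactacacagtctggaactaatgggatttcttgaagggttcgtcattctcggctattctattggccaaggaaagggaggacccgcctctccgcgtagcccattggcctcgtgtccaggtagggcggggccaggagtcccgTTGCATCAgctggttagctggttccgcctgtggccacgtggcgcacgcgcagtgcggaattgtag
Yars (chr4:129189653-129189952, plus strand): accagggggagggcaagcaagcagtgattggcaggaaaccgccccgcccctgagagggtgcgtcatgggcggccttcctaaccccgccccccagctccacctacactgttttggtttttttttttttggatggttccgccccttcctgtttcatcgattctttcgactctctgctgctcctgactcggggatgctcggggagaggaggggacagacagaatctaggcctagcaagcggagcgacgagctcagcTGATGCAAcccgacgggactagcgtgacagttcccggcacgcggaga
Aars held the core at 2 places, starting 112 bases before and 9 bases after the start site. In Gars and Tars it started 30 and 15 bases before the start site, and in Yars and Iars 3 and 7 bases after it. Aars, Iars and Tars carried TTGCATCA, Gars carried TTTCATCA, Aars carried both, and Yars carried TGATGCAA. The E-box CACGTG, the same on both strands and never overlapping the core here, was found in 4 of 12 cytosolic promoters (Aars, Farsb, Iars and Tars) and 1 of 14 mitochondrial ones (Ears2), against 7.15% of all promoters. A match describes the letters of the window and is not evidence of binding.

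Gene counts per library were 27664391 to 35170012 in day 3 whole-cell RNA, 13832829 to 16688555 in polysomes and 14513891 to 33262905 in the actinomycin D series. Replicates lay close together in that series, where their chi-square per degree of freedom, which is near 1 for counting error alone, was 1.29 to 4.39. It was higher on day 3, at 8.37 in KO and 12.8 in WT whole-cell RNA and 10.7 in KO polysomes. The WT polysome replicates stood farthest apart from each other, with a value of 77. Cnot3 itself had 11.4 and 11.9 CPM (counts scaled to library size) in KO cells on day 2, against 107 and 109 CPM in WT cells. It was also lower in KO cells in day 3 whole-cell RNA (log2 change -2.59) and polysomes (-2.45). The 6 ESC markers Pou5f1, Sox2, Nanog, Zfp42, Esrrb and Dppa5a were present in every group, with summed levels on day 2 of 2823 and 2802 CPM in KO cells and 4093 and 4059 CPM in WT cells. All 6 fell on day 2, by the edgeR call used below, where 32.9% of all genes tested fell and 29.8% rose. Of 10 trophectoderm markers, 8 of the 9 tested rose on day 2, and their summed level was 121 and 120.3 CPM in KO cells against 50 and 55.4 CPM in WT cells. On day 3, 8 of 10 rose in whole-cell RNA, where 16% of all genes tested rose. Their summed level was 579 and 560 CPM in KO cells against 117 and 130.2 CPM in WT cells. Of 8 feeder fibroblast markers (Thy1, Col1a1, Col1a2, Col3a1, Fbn1, Postn, Lum and Dcn), 3 of the 4 tested rose on day 2. The list summed to 42.6 and 42.5 CPM in KO cells and 27.5 and 27.3 CPM in WT cells, with Lum and Dcn at 0 in every library of both arms and Col3a1 at 0 in both KO libraries. In day 3 whole-cell RNA 5 of the 6 tested rose (median log2 change 0.89), with 41.6 and 47.1 CPM in KO cells against 22.7 and 25.6 CPM in WT cells and no marker at 0 in both libraries of an arm. What these shifts contribute to the synthetase changes below was not tested. In bulk RNA, fewer cells of a type and less RNA per cell cannot be told apart.

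Levels of different genes were compared as CPM per kb of transcript. On day 2 the cytosolic members had a median of 78.2 CPM per kb in KO cells and 96.1 CPM per kb in WT cells. The mitochondrial members had 15.3 CPM per kb in KO cells and 16.2 CPM per kb in WT cells. The highest member was Kars, the lysyl enzyme of both compartments, at 196 CPM per kb in KO and 244 CPM per kb in WT cells, and the lowest was the mitochondrial tryptophanyl enzyme Wars2, at 1.02 and 1.17 CPM per kb in KO and WT cells. In WT cells the 2 replicates left Kars above the next member Gars, at 244 ± 2.44 against 179 ± 4.38 CPM per kb (SD, n = 2). Farther down, the isoleucyl gene Iars at 73.8 ± 1.49 and the tryptophanyl gene Wars at 73.7 ± 1.33 CPM per kb did not differ beyond their spread. The cytosolic members ran in WT cells down to Cars at 51.2 CPM per kb, and all mitochondrial members but Lars2 lay below that, from Tars2 at 37.1 downward.

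Lars2, the mitochondrial leucyl enzyme, was the exception among them, with 161 ± 2.06 CPM per kb in WT cells and the fifth rank of 36. Counts per gene cannot show which part of its transcript these reads came from. Within the 13 amino acids that have both a cytosolic and a mitochondrial member here, the cytosolic mRNA was higher per kb in 12 of 13 pairs in WT cells, with a median ratio of 7.30. The ratio was largest for tryptophan, at 67.5 in KO and 63.1 in WT cells, and methionine, at 40 in KO and 53.6 in WT cells. The methionine ratio depends on the annotated transcript length of Mars2, 11294 bp, which counts per gene cannot check. For leucine alone the ratio was below 1, at 0.53 in KO and 0.60 in WT cells, with the same limit as the Lars2 level.

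**Figure D1:**
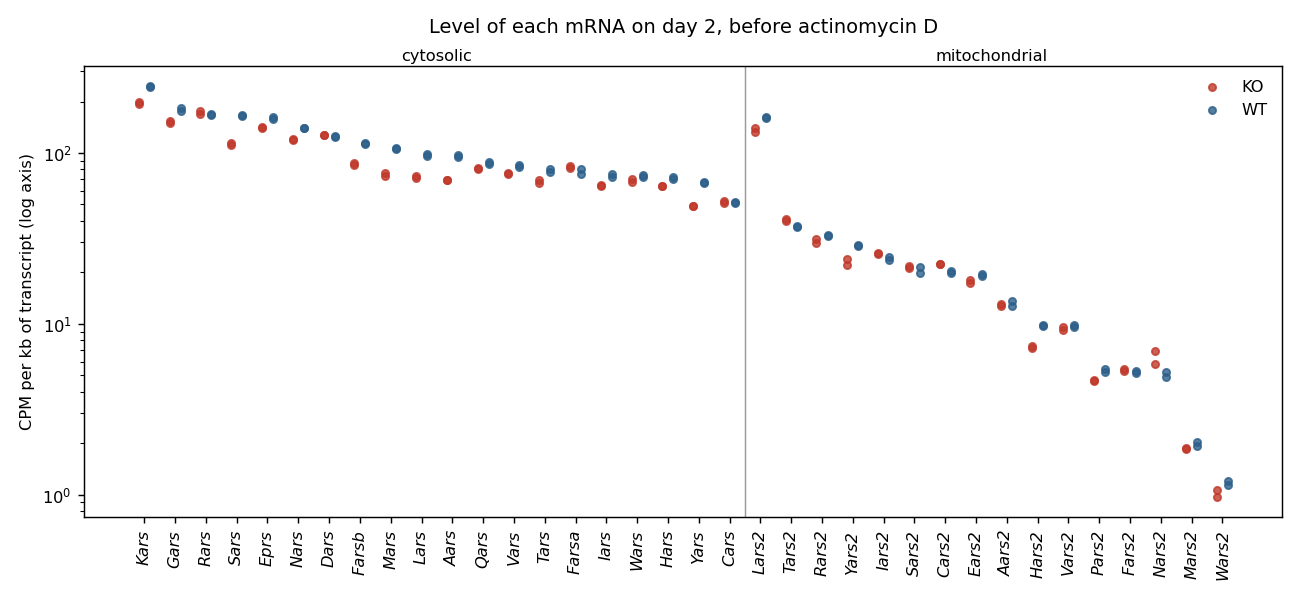
CPM per kb of transcript for each synthetase mRNA on day 2 before actinomycin D (log axis), with both replicates shown for KO cells (red) and WT cells (blue) and genes ordered by WT level within each class. The cytosolic members lie between 49.0 and 196 CPM per kb in KO cells and between 51.2 and 244 CPM per kb in WT cells, and Lars2 stands above the other mitochondrial members.

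On day 2 of the deletion, the cytosolic synthetase mRNAs fell together by small amounts. By edgeR's quasi-likelihood test with Benjamini-Hochberg adjustment over all genes and a threshold of 0.05, 16 of 20 cytosolic members fell in KO cells and 0 rose, where 32.9% of the 15823 genes tested fell and 29.8% rose. None of the other 4 (Cars, Dars, Farsa and Rars) passed, and their log2 changes lay between 0.01 and 0.09. The median log2 change of the cytosolic members was -0.20, against -0.01 over all genes tested. Of the 16 mitochondrial members, 3 rose (Nars2, Tars2 and Cars2), 3 fell (Hars2, Yars2 and Lars2) and 10 did not pass, with a median of -0.07 (-0.04 without Lars2). Summed over the 20 cytosolic members, KO cells had 5537 and 5560 CPM and WT cells 6577 and 6517 CPM.

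The seryl enzyme gene Sars, whose enzyme also makes the seryl-tRNA from which selenocysteine is built, changed most. It had 212 and 209 CPM in KO cells, against 308 and 311 CPM in WT cells. The KO values lay below both WT values, with a log2 change of -0.56 ± 0.04 (SE) and an adjusted p of 8.90e-16 in edgeR. On day 2, both KO libraries lay below both WT libraries in 41.5% of all genes tested and above both in 39.2%. Its mitochondrial partner Sars2 had 40.6 and 39.5 CPM in KO cells and 40.1 and 37.0 CPM in WT cells, groups that overlapped, with a log2 change of 0.06 that did not pass. The methionyl gene Mars, a member of the multisynthetase complex, had 226 and 217 CPM in KO cells, against 314 and 315 CPM in WT cells. Its log2 change was -0.51 ± 0.04 with an edgeR adjusted p of 4.58e-15, and the groups did not overlap. Mars2 had 20.96 and 21.25 CPM in KO cells and 21.8 and 23.0 CPM in WT cells, with a log2 change of -0.09 that did not pass.

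The alanyl gene Aars, the member with 2 C/EBP-ATF cores, had 399 and 401 CPM in KO cells, against 558 and 541 CPM in WT cells. The tyrosyl gene Yars had 143 and 142 CPM in KO cells, against 196 and 193 CPM in WT cells. Both KO groups lay below their WT groups, with log2 changes of -0.46 ± 0.04 for Aars and -0.45 ± 0.04 for Yars and edgeR adjusted p-values of 1.33e-13 and 6.88e-13. Aars2 did not pass, with a log2 change of -0.02, whereas Yars2 fell as well. The other members with a change beyond -0.4 were the leucyl gene Lars (-0.42) and Farsb (-0.41), which encodes the beta subunit of the phenylalanyl enzyme. The alpha subunit gene Farsa, which must pair with it in the enzyme, had 154 and 149 CPM in KO and 146 and 137 CPM in WT cells and did not pass.

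Among the mitochondrial members that moved, Hars2, the histidyl enzyme, had 24.8 and 24.0 CPM in KO cells, against 32.7 and 32.2 CPM in WT cells. Yars2 had 34.8 and 37.7 CPM in KO cells, against 45.0 and 45.8 CPM in WT cells. Lars2 had 544 and 518 CPM in KO cells, against 622 and 633 CPM in WT cells. None of the 3 genes had overlapping groups, where 41.5% of all genes had both KO libraries below both WT libraries. The log2 changes of the 3 were -0.41 ± 0.07, -0.33 ± 0.06 and -0.24 ± 0.04 in that order. Their edgeR adjusted p-values were 3.37e-06, 6.94e-06 and 5.56e-07. The asparaginyl gene Nars2 went the other way. It had 26.3 and 21.9 CPM in KO cells and 18.4 and 19.8 CPM in WT cells, a log2 change of 0.33 ± 0.08 and an edgeR adjusted p of 3.18e-04, while cytosolic Nars fell (-0.22). Tars2 (0.13) and Cars2 (0.15) also rose, but of 19 alternatives 6 ended the call for Tars2 and 13 for Cars2. The call for Nars2 ended under 2 of them, DESeq2 and leaving out KO replicate 1 at 0 h.

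Members of the complex and free enzymes, and both structural classes of synthetase, were among those that fell. Of 8 members of the multisynthetase complex, 6 fell, with a median log2 change of -0.18, and of 12 free cytosolic members 10 fell, with a median of -0.22. Of the class I cytosolic enzymes, 7 of 9 fell, and of class II, 8 of 10. All 5 genes with the C/EBP-ATF core fell (median -0.24), as did 5 of 7 cytosolic genes whose promoter lacked it (median -0.18). Within the 13 pairs, the cytosolic change lay below the mitochondrial one in 10, with a median difference of -0.18. On day 3 it lay below in 9 of 13 in whole-cell RNA and in 5 of 13 in polysomes.

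The scale of the libraries bears on these counts. Scaling by library totals alone moved the median of all genes from -0.01 to 0.14, and RLE scaling moved it to -0.15. Under all 3 scalings the cytosolic median lay 0.18 below that of all genes. Under each, 16 of 20 cytosolic members lay below the median of all genes. A scaling shifts all genes of a library alike, so these values could hardly move and do not test the gap. The calls moved with the scale: under library totals 8 cytosolic members fell and 4 rose, and Hars, Qars, Vars and Wars changed sign. Under RLE 19 cytosolic members fell. Mitochondrial members numbered 10 lower and 1 higher under RLE, and 3 lower and 6 higher under library totals. All genes were 43.6% lower and 22.4% higher under RLE, and 21.5% lower and 41.8% higher under library totals. Sars, Mars, Aars, Yars, Lars, Farsb, Kars and Gars kept the call under all 19 alternatives tried.

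**Figure D2:**
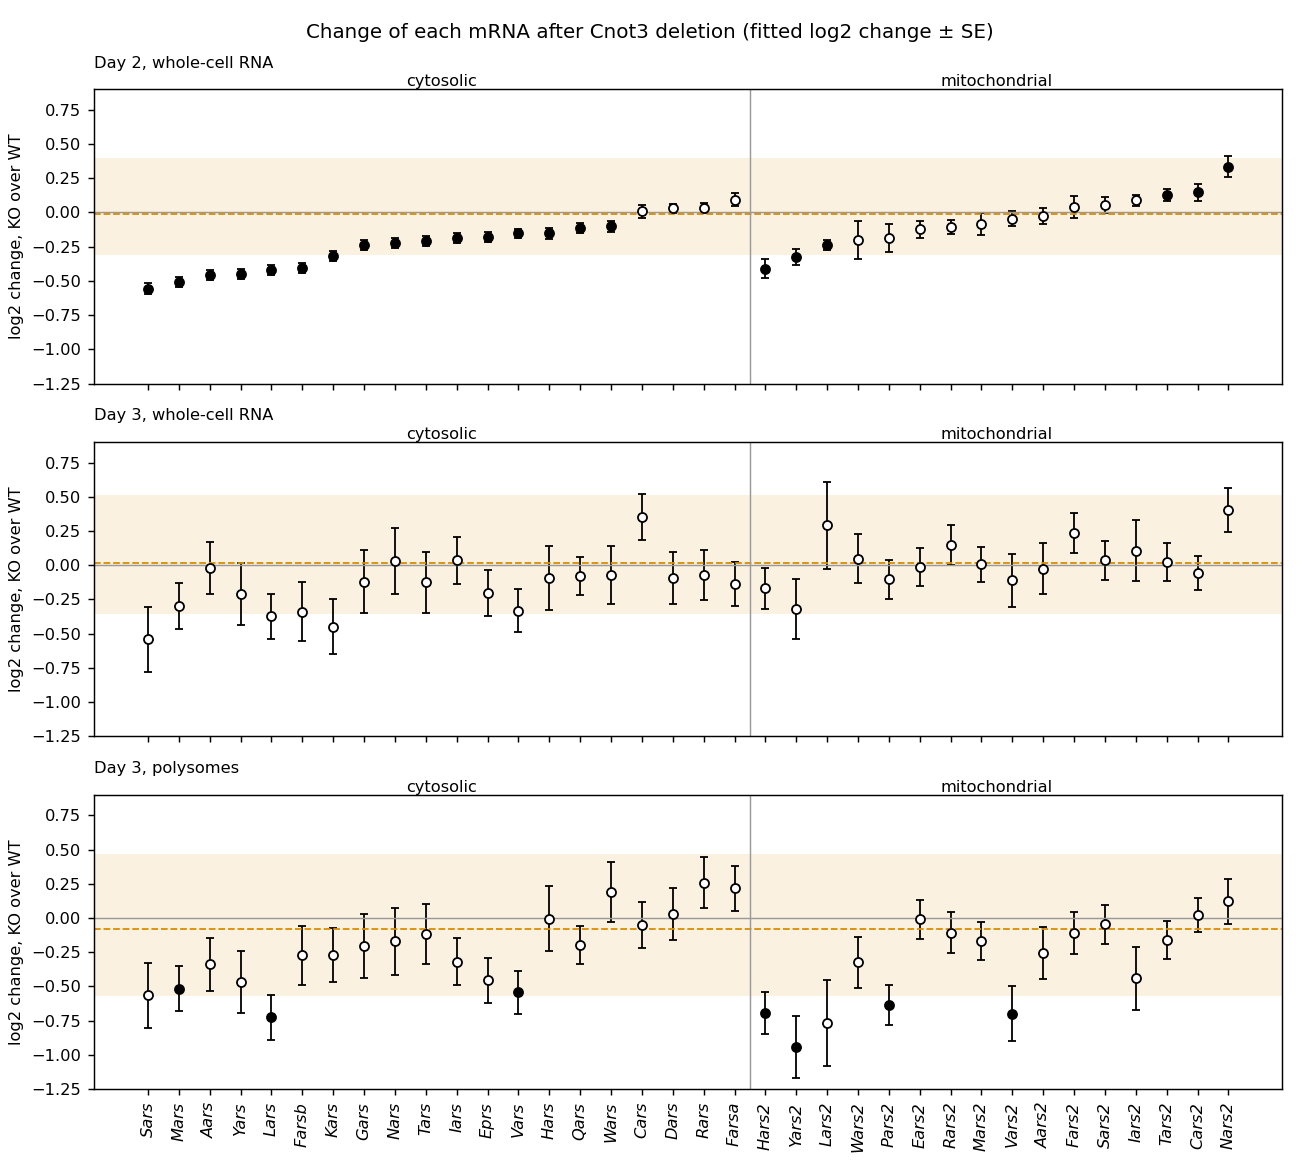
Fitted log2 change, KO over WT, with its standard error for each synthetase gene on day 2, in day 3 whole-cell RNA and in day 3 polysomes; filled points passed the edgeR test. The dashed line and band give the median and the middle quartiles of all genes tested. Cytosolic members lie mostly below the line on day 2, where 16 of 20 are filled, and 0 of 36 points are filled in day 3 whole-cell RNA.

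In whole-cell RNA on day 3, no synthetase gene passed the test. By edgeR, 0 of 20 cytosolic and 0 of 16 mitochondrial members changed, where 28.2% of 18303 genes did. At an unadjusted p under 0.05, which 42% of genes reached, there were 3 cytosolic members and 1 mitochondrial, and DESeq2 called 3 cytosolic members lower. The median log2 change was -0.12 for cytosolic members and 0.02 for mitochondrial ones, against 0.01 for all genes. In 16 of 20 cytosolic members both KO libraries nevertheless lay below both WT libraries, which 39.4% of all genes did. Among mitochondrial members it was 5 of 16.

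The fit behind these calls shared its estimate of spread with the polysome libraries. A fit of the 4 whole-cell libraries alone called 8 cytosolic members lower and 1 higher, and 2 mitochondrial members lower and 2 higher, where 28.9% of all genes were lower and 28.9% higher. Without WT polysome replicate 1 or without replicate 2, 8 cytosolic members were called lower in whole-cell RNA, where 24.5% and 24.6% of all genes were. Sars had 176 and 163 CPM in KO cells, against 254 and 238 CPM in WT cells, a log2 change of -0.54 ± 0.24 with an edgeR adjusted p of 0.110. Kars had 394 and 381 CPM in KO cells, against 532 and 524 CPM in WT cells (-0.45 ± 0.20, edgeR adjusted p of 0.112). Lars had 292 and 292 CPM in KO cells, against 380 and 377 CPM in WT cells (-0.37 ± 0.16, edgeR adjusted p of 0.108). In all 3 genes the groups did not overlap. The cysteinyl gene Cars lay on the other side, with 138 and 139.9 CPM in KO cells and 110 and 108 CPM in WT cells, a log2 change of 0.35 that did not pass. Under library totals the median of all genes moved to 0.28 and the cytosolic median to 0.14. The sign of the class median thus depended on the scaling. Its distance of 0.14 below the median of all genes could hardly change, since a scaling shifts all genes alike.

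In polysomes on day 3, members of both classes fell about as often as genes in general. By edgeR, 3 of 20 cytosolic members (Lars, Mars and Vars) and 4 of 16 mitochondrial members (Yars2, Vars2, Hars2 and Pars2) fell and 0 rose, where 21.1% of 18303 genes fell and 15.9% rose. Lars had 91.8 and 87.0 CPM in KO polysomes, against 168 and 127 CPM in WT polysomes. Its log2 change was -0.73 ± 0.17 with an edgeR adjusted p of 0.00675, and the groups did not overlap. In polysomes, both KO libraries lay below both WT libraries in 34% of all genes tested. Yars2 had 38.1 and 35.2 CPM in KO polysomes, against 49.9 and 90.4 CPM in WT polysomes, with a log2 change of -0.94 ± 0.23 and an edgeR adjusted p of 0.00849. Pars2, the mitochondrial prolyl enzyme, had 12.8 and 13.0 CPM in KO polysomes, against 21.04 and 19.04 CPM in WT polysomes (-0.63 ± 0.15, edgeR adjusted p of 0.00733).

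The valyl pair fell in both compartments. Vars had 109.6 and 120.3 CPM in KO polysomes, against 149 and 186 CPM in WT polysomes (log2 change -0.54), and Vars2 had 19.5 and 21.1 CPM in KO polysomes, against 25.1 and 40.9 CPM in WT polysomes (-0.70). Hars2 had 24.1 and 27.1 CPM in KO polysomes, against 36.5 and 46.2 CPM in WT polysomes (-0.69). Mars had 127 and 114 CPM in KO polysomes, against 195 and 148 CPM in WT polysomes (-0.52). Their groups did not overlap, but the WT replicates lay far apart in most of them. Partners that did not pass were Lars2 at -0.77, with 350 and 271 CPM in KO and 567 and 491 CPM in WT polysomes, Yars at -0.47, Mars2 at -0.17 and Hars at -0.004.

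These counts depended on the WT polysome replicates. Summed over cytosolic members, KO polysomes held 3980 and 3704 CPM, against 5384 CPM in WT replicate 1 and 3581 CPM in WT replicate 2. In 19 of 20 cytosolic members WT replicate 2 was the lower of the WT pair. The mitochondrial members summed to 871 and 785 CPM in KO polysomes and to 1138 and 1174 CPM in WT polysomes. Mitochondrially encoded genes took 1.16% and 0.913% of counts in KO polysomes, against 1.38% in WT replicate 1 and 5.04% in WT replicate 2. Reads outside genes were 4.75% and 6.61% in KO polysomes, against 7.05% in WT replicate 1 and 12.9% in WT replicate 2, and the part of these in the result was not tested. Without WT replicate 2, 15 cytosolic members fell, where 21.4% of all genes fell, and the cytosolic median was -0.53. Without WT replicate 1, 8 cytosolic members rose and 7 mitochondrial members fell, where 20% of all genes rose and 26.1% fell, and the cytosolic median was 0.10. Lars, Mars, Vars, Hars2, Pars2 and Yars2 kept their call without either of these 2 libraries, and Vars2 lost it without replicate 2. With the 4 polysome libraries fitted alone, 0 of these 7 members passed by edgeR, and 0 of the 7 calls held under all 15 alternatives.

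**Figure D3:**
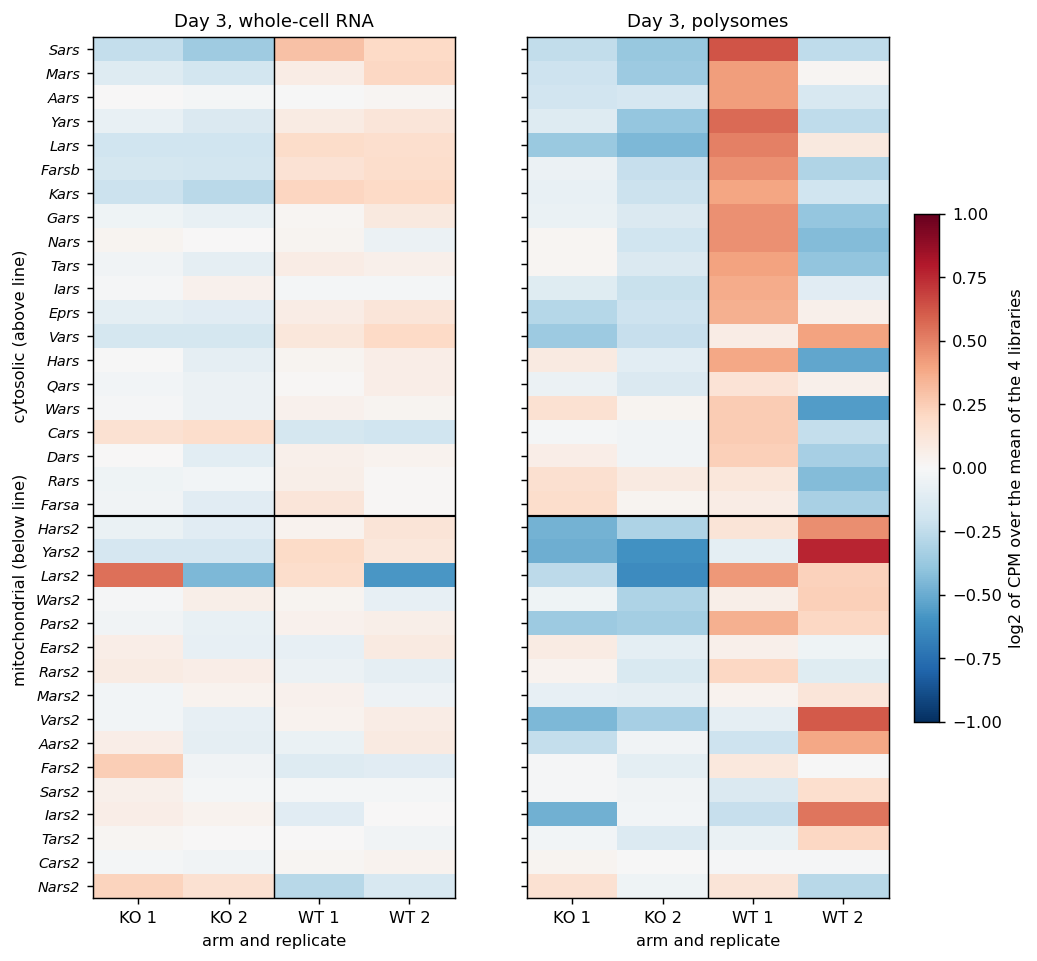
Level of each synthetase mRNA in each day 3 library as log2 of its CPM over the mean of the 4 libraries of that fraction, with KO libraries to the left of WT libraries and cytosolic genes above the line. In polysomes the cytosolic genes are high in WT replicate 1 and not in WT replicate 2, where 19 of 20 were lower. In whole-cell RNA the KO libraries are lower for most cytosolic genes and Lars2 differs more between replicates than between arms.

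The change of polysome association, the polysome change minus the whole-cell change, was called for 0 of 36 members by edgeR, where 0.0109% of 18303 genes (1 higher and 1 lower) were called. At an unadjusted p under 0.05, which 12.6% of genes reached, there were 0 cytosolic and 3 mitochondrial members (Pars2, Hars2 and Lars2), and DESeq2 called 0. The median was -0.10 for cytosolic and -0.31 for mitochondrial members (-0.28 without Lars2), against -0.08 for all genes. Without WT polysome replicate 1, 10 cytosolic members were called higher and 4 mitochondrial members lower, where 9.05% of all genes were then higher and 15.2% lower. These calls rest on the lone WT polysome library left, which is assumed to vary like the other groups. In the day 3 whole-cell libraries 20.12% to 24.96% of reads were tallied as not uniquely aligned, against 0% in the polysome libraries. The part of this difference in the association was not tested.

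Whether the KO change differed between day 3 and day 2 was tested in whole-cell RNA. By edgeR, 6 of 20 cytosolic members (Aars, Cars, Nars, Yars, Iars and Mars) and 1 of 16 mitochondrial members (Rars2) had a higher change on day 3, and 0 had a lower one, where 2.54% of 19071 genes were higher and 2.29% lower. Aars differed most. On day 3 it had 431 and 424 CPM in KO cells and 430.3 and 438 CPM in WT cells, which overlap, whereas it had been lower in KO cells on day 2. The difference of the log2 changes was 0.47 ± 0.06 with an edgeR adjusted p of 4.02e-05. For Cars it was 0.38 ± 0.07 with an edgeR adjusted p of 7.10e-04, and for Nars 0.29 ± 0.07 with 0.00928.

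For Sars the difference was 0.05 and did not pass, with log2 changes of -0.54 on day 3 and -0.56 on day 2. Of the partners, Aars2 had a difference of 0.04, Cars2 -0.17 and Nars2 0.10, none of which passed. The class medians were 0.09 for cytosolic and 0.11 for mitochondrial members, against 0.02 for all genes. Of the 5 genes with the C/EBP-ATF core, 3 were called (Aars, Iars and Yars), and of the 7 cytosolic genes whose promoter lacked it, 0. Cars, Nars and Mars, which were also called, had no promoter entry and are in neither count. Iars and Yars each lost the call under 9 of 14 alternatives. The day 3 whole-cell libraries differed from the others in makeup, with 92.0% to 93.5% of counts in protein-coding genes against 98.8% to 98.9% on day 2, and their WT cells carry another source label. In these libraries 20.12% to 24.96% of reads were tallied as not uniquely aligned, against 0% in every other library. Why this tally differed was not tested. The day and these differences cannot be told apart.

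Actinomycin D stops new transcription, and the slope of each mRNA over 0, 4 and 8 h was taken in log2 per hour. The libraries were scaled to each other, so a slope above 0 marks an mRNA that was lost more slowly than the average mRNA, not one that was made. All 20 cytosolic members had slopes above 0 in KO cells and in WT cells by edgeR, where 31.6% of 15823 genes did in KO cells and 35% in WT cells. The cytosolic median was 0.08 log2 per hour in KO cells and 0.11 log2 per hour in WT cells, against 0.00 and -0.01 for all genes. Over 8 h the median slope came to a relative level of 1.57 in KO cells and 1.86 in WT cells. The slopes ran from 0.05 (Cars) to 0.10 (Kars) in KO cells and from 0.03 (Rars) to 0.14 (Kars) in WT cells.

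Mitochondrial members were spread widely. In KO cells 9 of 16 had slopes above 0 and 3 below 0 (Hars2, Mars2 and Pars2), where 36.3% of genes were below 0. In WT cells 7 were above 0 and 5 below 0 (the same 3 with Yars2 and Fars2), where 38.8% of genes were below 0. Their range in WT cells was -0.39 to 0.32 log2 per hour, against 0.03 to 0.14 for the cytosolic members. Pairs for the same amino acid could thus differ in sign, as for methionine, histidine and tyrosine. The slope was higher for the cytosolic mRNA in 8 of 13 pairs in KO cells and in 11 of 13 in WT cells. In WT cells the isoleucine and threonine pairs differed by only 0.0003 and 0.0013 log2 per hour.

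Mars2 and Pars2 were lost most quickly. Mars2 had 20.96 and 21.25, then 6.53 and 6.19, then 3.52 and 3.55 CPM in KO cells at 0, 4 and 8 h, against 21.8 and 23.0, then 3.09 and 2.76, then 2.67 and 3.04 CPM in WT cells. Pars2 had 14.4 and 14.1, then 2.3 and 1.5, then 1.3 and 1.5 CPM in KO cells, against 16.5 and 15.9, then 2.2 and 1.6, then 1.8 and 2.8 CPM in WT cells. Both fell most of the way within 4 h, so a straight line describes them poorly. At 8 h Mars2 was at 0.167 of its start in KO and 0.128 in WT cells, and Pars2 at 0.0952 in KO and 0.142 in WT cells. Their slopes in WT cells were -0.39 ± 0.06 and -0.38 ± 0.09 log2 per hour, with edgeR adjusted p-values of 4.04e-04 and 0.00316.

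Lars2 ran the other way. It had 544 and 518, then 1091 and 1037, then 1694 and 1632 CPM in KO cells at 0, 4 and 8 h, against 622 and 633, then 1643 and 1677, then 3789 and 3621 CPM in WT cells. Relative to 0 h it reached 3.13 in KO and 5.91 in WT cells at 8 h. Its WT slope of 0.32 ± 0.01 log2 per hour (edgeR adjusted p of 3.22e-10) was the 38th highest of 15823 genes, and its KO slope was the 48th highest. On day 3 its whole-cell level was 177 and 88.2 CPM in KO cells and 136 and 80.6 CPM in WT cells, a larger gap between replicates than between arms. In day 3 polysomes it had 350.4 and 271.5 CPM in KO cells and 566.6 and 491.4 CPM in WT cells. Reads not uniquely aligned were tallied in the day 3 whole-cell libraries alone, and the part of this in the Lars2 level was not tested. No transcript of Lars2 matched another annotated transcript over at least 300 bp at 95% identity, a search that did not cover other repeated sequence. From counts per gene it cannot be told which reads gave its level and its rise.

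**Figure D4:**
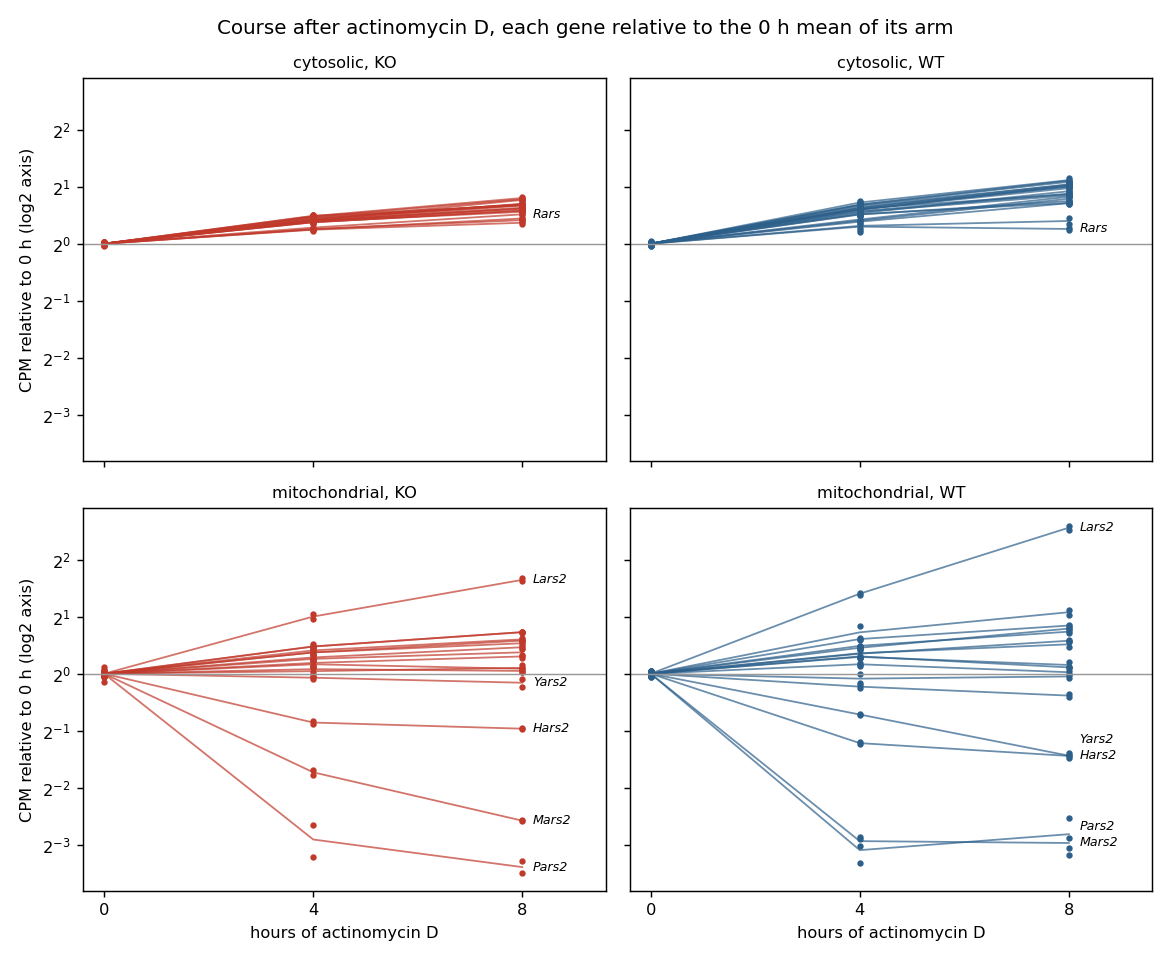
Course of each synthetase mRNA over hours of actinomycin D as CPM relative to the mean of its arm at 0 h (log2 axis), with KO cells on the left, WT cells on the right, cytosolic genes above and mitochondrial genes below; points are replicates and lines join means. The cytosolic genes run together above 1, while Lars2 reaches 3.13 in KO and 5.91 in WT cells and Mars2 and Pars2 drop below 0.2 by 8 h.

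The question of the actinomycin D series was whether an mRNA was lost at another rate in KO cells. Each slope is relative to the average mRNA of its arm, and counts scaled to each other cannot show whether that average differed. The middle quartiles of all slopes ran from -0.12 to 0.06 log2 per hour in KO cells and from -0.15 to 0.08 in WT cells. What this narrower spread in KO cells contributes to the differences below was not tested. By edgeR, the KO slope was lower than the WT slope in 9 of 20 cytosolic members (Aars, Yars, Mars, Nars, Lars, Sars, Cars, Eprs and Vars) and higher in 0, where it was lower in 8.78% of 15823 genes and higher in 10.2%. Among mitochondrial members it was higher in 2 of 16 (Yars2 and Fars2) and lower in 2 (Lars2 and Vars2). The median difference was -0.04 log2 per hour for cytosolic and 0.003 for mitochondrial members, against -0.01 for all genes. Of the 9 cytosolic members, 8 had also fallen on day 2, a count that shares the 0 h libraries with this comparison.

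Aars had 399 and 401, then 477 and 480, then 537 and 528 CPM in KO cells at 0, 4 and 8 h, against 558 and 541, then 706 and 769, then 979 and 966 CPM in WT cells. The KO values lay below the WT values at each time and the gap widened, with a slope difference of -0.051 ± 0.011 log2 per hour and an edgeR adjusted p of 0.00497. Mars had 226 and 217, then 285 and 296, then 337 and 341 CPM in KO cells, against 314 and 315, then 478 and 477, then 639 and 624 CPM in WT cells. Its slope difference was -0.049 ± 0.012 log2 per hour (edgeR adjusted p of 0.0121). At 8 h, 18 of 20 cytosolic members had both KO libraries below both WT libraries, against 44.1% of all genes. The exceptions were Rars, with 522 and 517 CPM in KO and 429 and 420 CPM in WT cells, and Farsa, with 225 and 226 CPM in KO and 193 and 180.3 CPM in WT cells.

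Yars2 had the largest difference of the other sign. It had 34.8 and 37.7, then 33.9 and 35.1, then 30.9 and 34.0 CPM in KO cells, against 45.0 and 45.8, then 27.8 and 27.5, then 17.3 and 16.2 CPM in WT cells. After 8 h it stood at 0.896 of its start in KO cells and at 0.369 in WT cells, and the arms crossed between 0 and 4 h. The slope was -0.02 log2 per hour in KO and -0.18 log2 per hour in WT cells, a difference of 0.16 ± 0.01 with an edgeR adjusted p of 3.98e-06. Cytosolic Yars differed in the opposite direction, by -0.043 ± 0.009 log2 per hour. Fars2, the mitochondrial phenylalanyl enzyme, had 18.4 and 17.7, then 18.5 and 19.7, then 18.4 and 19.0 CPM in KO cells, against 17.7 and 17.4, then 15.3 and 14.7, then 13.7 and 13.2 CPM in WT cells (0.05, edgeR adjusted p of 0.0241). Lars2 differed by -0.11 ± 0.02 log2 per hour with an edgeR adjusted p of 4.60e-04.

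The number of cytosolic members called moved with the scaling. Under RLE scaling 0 were called lower, where 3.51% of all genes were, and under library totals 3, where 4.1% of all genes were. With time as a factor, 16 were lower at 8 h, where 24.3% of all genes were. The cytosolic median was -0.0375 log2 per hour under TMM scaling, the one used throughout, -0.0286 under RLE and -0.0204 under library totals. It lay 0.025 log2 per hour below the median of all genes under TMM, RLE and library totals. Under each, 17 of 20 members lay below the median of all genes. As on day 2, a change of scaling could hardly move these values. Leaving out either WT library at 0 h or either KO library at 8 h left 2 cytosolic members called lower, where 3.43% to 4.13% of all genes were. Yars2 and Lars2 kept their calls under all 20 alternatives.

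**Figure D5:**
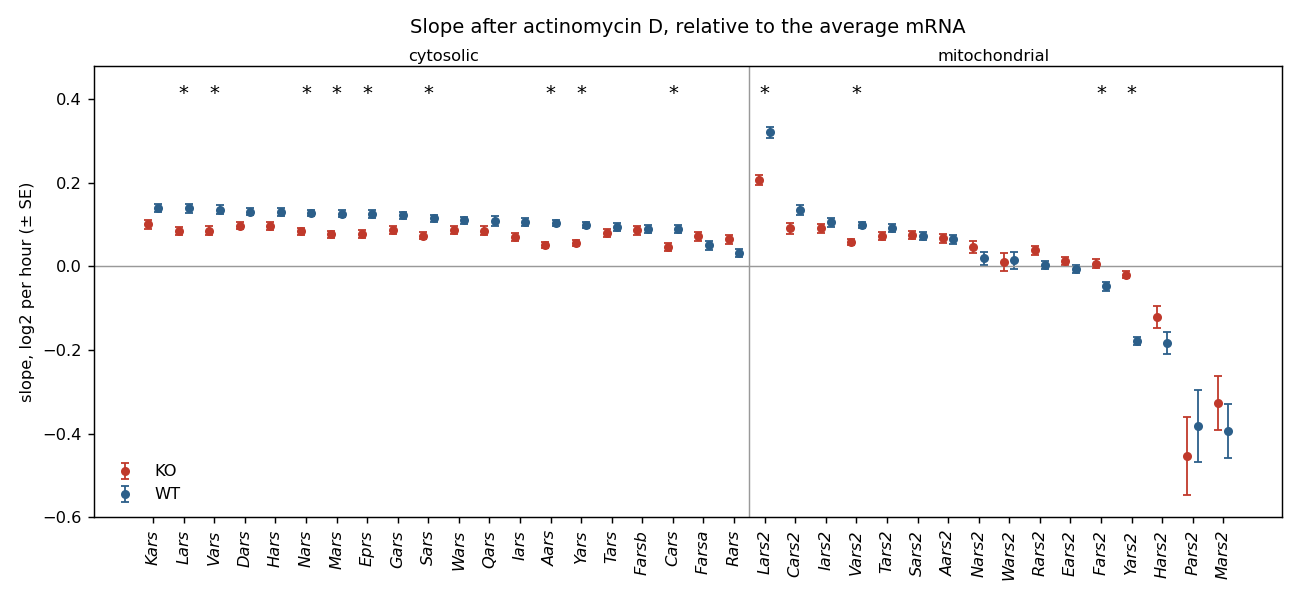
Slope of each synthetase mRNA after actinomycin D in log2 per hour with its standard error, relative to the average mRNA, for KO cells (red, left) and WT cells (blue, right); a star marks a slope difference that passed the edgeR test. All 20 cytosolic slopes are above 0 in both arms, the KO slope is below the WT slope in 18 of 20, and Yars2 differs most among the mitochondrial genes.

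Companion genes of tRNA charging moved in both directions on day 2. The multisynthetase scaffold genes Aimp1 (log2 change 0.09) and Aimp2 (0.12) rose on day 2 and Eef1e1 fell (-0.21). All 3 had higher slopes in KO than in WT cells, by 0.05, 0.06 and 0.17 log2 per hour, where 10.2% of all genes did. The sign was opposite to that of the 3 of 8 complex members that were called. Eef1e1 also fell in day 3 whole-cell RNA (-0.48, edgeR adjusted p of 0.0462). Of 12 other charging and editing genes, 7 rose and 2 fell on day 2, where 29.8% of all genes rose and 32.9% fell. The largest rises were in Tarsl2 (0.53), a second cytosolic threonyl enzyme, Mtfmt (0.47), which formylates the mitochondrial initiator methionyl-tRNA, and Gatb (0.31), a subunit of the mitochondrial glutaminyl-tRNA amidotransferase. Sepsecs, the last enzyme of selenocysteinyl-tRNA synthesis, fell (-0.35). Mtfmt and Pstk, which phosphorylates seryl-tRNA on that route, rose on day 3 as well, by 0.52 and 0.53.

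Most other ATF4 target genes also fell on day 2. Of 22 listed, 21 were tested, and 18 fell and 2 rose (Atf3 and Ddit4), where 32.9% of all genes fell and 29.8% rose. The median log2 change of the 21 was -0.52, against -0.01 for all genes. Slc7a3, a transporter of cationic amino acids, changed by -1.30, Slc7a5, the light chain of the leucine transporter, by -0.83, and its heavy chain Slc3a2 by -0.70. Atf4 itself changed by -0.76. On day 3, 4 of 22 fell and 3 rose in whole-cell RNA, where 28.2% of all genes changed. In day 3 polysomes, 12 of 22 fell and 2 rose, where 21.1% of all genes fell and 15.9% rose. Their median log2 change there was -0.56, with WT replicates that stood far apart. In whole-cell RNA the change was higher on day 3 than on day 2 for 11 and lower for 1. Of all genes, 2.54% were higher and 2.29% lower. In the slope difference, 11 of 21 were lower in KO cells and 0 higher, where 8.78% of all genes were lower and 10.2% higher.

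Some counts carry reads that other genes may share. Exons of Iars2 overlap those of neighbours over 24.2% of their length (Rab3gap2 among them), Aars over 15.1% (mainly Exosc6, which has no row in the count tables), Fars2 over 10.7%, Farsb over 9.5%, Vars2 over 8.5%, and Hars and Hars2 overlap each other. Exosc6 lies on the same strand as Aars, so no strand setting would separate its reads from those of Aars. For the rest, the sources used here do not say whether counting used strand. Reads that HTSeq tallied as ambiguous, 2.3% to 3.6% of all reads tallied, were left out. How many reads such neighbours added to a member or took from it cannot be told. Iars has a copy, Gm4849, that matches 1656 bp of its transcript at 96.0% identity and has no row in the count tables.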

How the data were processed

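The data were counts of reads per gene, whole numbers deposited by the authors as 1 table for each of 20 libraries. Per the submitters' processing notes, STAR 2.3.0e, HTSeq and mm9 were used. HTSeq's version, its strand setting and any poly(A) selection are not given in the sources used. From these counts, TMM-scaled CPM and log2 changes were computed with edgeR 4.0.16 in R 4.3.3 (filterByExpr at its minimum of 10 counts, quasi-likelihood F-tests with robust dispersions), with p-values adjusted over all genes tested (Benjamini-Hochberg, threshold 0.05). The 8 day 3 libraries were fitted together, as were the 12 of the actinomycin D series, and 8 libraries for the difference between days. P-values measure the spread between 2 biological replicates, estimated jointly over the groups of each fit. In the slope tests that spread also holds any departure from a straight line over the hours of actinomycin D. HTSeq's tallies of unassigned reads (such as those outside genes, 4.75% to 19.0% of all reads tallied) were left out. Reads tallied as not uniquely aligned were 20.12% to 24.96% in the day 3 whole-cell libraries and 0% in every other library. CPM per kb used the GENCODE M21 transcript with the longest coding sequence. The members, companion lists and marker lists were chosen with earlier results of these data known. Full values were given for up to 4 called members per class and direction of smallest adjusted p and their partners, and for up to 3 companions per list. The procedure was run on simulated data with the same spread in every group, a setting that leaves out the unequal spread of the real groups. Alternatives were RLE scaling, library totals, DESeq2 1.42.0, leaving out the filter or using 1 CPM, a replicate block, fits of only the 4 libraries compared, time as a factor and each library left out in turn.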

Additional observations from a re-analysis of the deposited data

Results flagged for a closer look

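The KO change differed between day 3 and day 2 for 7 members by the edgeR test of the difference itself. On the log2 scale the day 3 change was higher by 0.47 for Aars, 0.38 for Cars, 0.29 for Nars, 0.27 for Yars, 0.26 for Iars, 0.24 for Mars and 0.29 for Rars2. Aars and Cars kept this call under all 14 alternatives, with differences of 0.37 to 0.54 for Aars and 0.28 to 0.45 for Cars, and the other 5 lost it under at least 6.

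The slope after actinomycin D differed between KO and WT cells for 13 members by the edgeR test of the difference. In log2 per hour, the KO slope was lower by -0.05 for Aars, -0.04 for Cars, -0.05 for Eprs, -0.05 for Lars, -0.05 for Mars, -0.04 for Nars, -0.04 for Sars, -0.05 for Vars and -0.04 for Yars. Among mitochondrial members the difference was 0.05 for Fars2, -0.11 for Lars2, -0.04 for Vars2 and 0.16 for Yars2. Over the 20 alternatives the difference ran from 0.15 to 0.18 for Yars2 and from -0.12 to -0.10 for Lars2.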

How the results depend on the processing

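Of the calls on members, 11 of 22 on day 2 held under all 19 alternatives, 0 of 7 in polysomes under all 15, 2 of 7 in the difference between days under all 14, 30 of 32 WT slopes under all 20 and 2 of 13 slope differences under all 20. Signs turned on day 2 under library totals for Hars (0.0009), Qars (0.0435), Vars (0.0007) and Wars (0.0526) and under RLE scaling (-0.0090) and DESeq2 (-0.0089) for Tars2, and for the WT slope of Rars under library totals (-0.0096).

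On day 2, cytosolic members higher numbered 4 under library totals, 1 with the 1 CPM filter and 1 with only the 4 libraries compared, and cytosolic members lower 8 under library totals. Mitochondrial members higher numbered 1 under RLE, 6 under library totals, 1 without a filter and 0 in DESeq2, and lower ones 10, 3, 5 and 6. In day 3 whole-cell RNA, library totals gave 1 cytosolic and 3 mitochondrial members higher, no filter 1 cytosolic lower, DESeq2 3 cytosolic lower, and the 4 libraries alone 1 cytosolic higher and 8 lower with 2 mitochondrial higher and 2 lower. In polysomes, cytosolic members higher numbered 2 under library totals, and lower ones 1 under library totals, 1 without a filter and 0 with the 4 libraries alone. Mitochondrial members lower in polysomes numbered 1 under library totals and 0 with the 4 libraries alone.

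In the difference between days, cytosolic members higher numbered 2 without a filter and 2 in DESeq2, cytosolic members lower 2 without a filter, and mitochondrial members higher 0 under RLE, 2 under library totals, 0 without a filter and 0 in DESeq2. In the slope difference, cytosolic members higher numbered 1 under library totals, 1 in DESeq2 and 2 for 8 h against 0 h. Cytosolic members lower numbered 0 under RLE, 3 under library totals, 5 in DESeq2, 16 for 8 h and 15 for 4 h against 0 h. Mitochondrial members higher numbered 1 without a filter and 4 for 8 h, and lower ones 1 under RLE, library totals, no filter and DESeq2 and 4 for 8 h. The cause of these moves was not tested.

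With 1 library left out, the lone library of its group is taken to vary as other groups do. Cytosolic members higher and lower and mitochondrial members higher and lower then numbered 0 to 1, 14 to 16, 0 to 4 and 3 to 5 on day 2. They numbered 0 to 1, 0 to 8, 0 to 1 and 0 to 1 in day 3 whole-cell RNA and 0 to 8, 0 to 15, 0 to 1 and 1 to 7 in polysomes. Association gave 0 to 10 cytosolic members higher and 0 to 4 mitochondrial members lower. The difference between days gave 2 to 6 cytosolic members higher, 0 to 1 lower and 0 to 1 mitochondrial members higher, and the slope difference 0 to 1, 2 to 13, 1 to 2 and 1 to 3 in the first order.

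The labels do not say that a replicate number marks samples of 1 batch or culture, and 2 numbers are too few to establish it. Deviations of same-numbered KO and WT libraries correlated at 0.326 in whole-cell RNA, 0.287 in polysomes and 0.0576, -0.0349 and 0.0373 at 0, 4 and 8 h. A replicate block left 16 cytosolic members lower on day 2, 3 in polysomes and 9 in the slope difference, with 5 mitochondrial members lower in polysomes.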
